A study of Homo sapiens with 6 samples.

Results

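The Sestrins and the cytosolic sensors of arginine and S-adenosylmethionine are among the proteins that tell mTORC1 how much of an amino acid a cell holds. Their genes were followed here in HEK-293T, a line of human embryonic kidney origin with the genotype label WT, after 12 h in medium with 10 µM nitidine chloride, a benzophenanthridine alkaloid, or after 12 h in medium with DMSO. Each condition had 3 libraries of mRNA, and the labels do not say whether these came from separate cultures, so p-values measure the spread between these libraries, which may be technical. SESN2, SESN1, SESN3, CASTOR1 and BMT2 were taken by gene symbol from the deposited table, which made 5 of its 50868 genes. Each symbol had 1 row, and all 5 genes passed the filter of a mean of at least 10 counts, together with 15953 tested genes in all.

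mTORC1 is a kinase complex that drives growth when amino acids are present. Rag GTPases bring it to the lysosome, the GATOR1 complex switches these GTPases off, and GATOR2 holds GATOR1 back. The SESN2 and SESN1 proteins without leucine, and CASTOR1 without arginine, bind GATOR2 and block it. The BMT2 protein, also called SAMTOR, binds GATOR1 with its anchor KICSTOR when S-adenosylmethionine, the product of methionine, runs low. Sestrins are also known as stress genes: SESN2 is a target of ATF4 and of the antioxidant factor NRF2, and SESN3 is a target of FOXO factors. The title of the study names ATF4 and Sestrin2, the product of SESN2, as its subject.

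Library totals ran from 12688093 to 16357992 counts. Of all tested genes, 51.7% changed (edgeR's quasi-likelihood test, Benjamini-Hochberg adjusted p under 0.05), 24.7% higher and 27.0% lower after nitidine chloride, and the libraries of both conditions did not overlap for 60.7%. Levels are given as CPM (counts brought to a common library size, with TMM scaling) for a gene across libraries, and as FPKM (per kilobase of gene length, from the authors' table) where genes are compared with each other. All 6 markers fixed for the HEK-293T line were among the tested genes: LHX1, NEFL and KRT18 rose, NEFM fell, and VIM and PAX2 did not pass. VIM was the most abundant of them, with 99.7 FPKM after nitidine chloride and 72.4 FPKM in DMSO, and NEFM had 9.47 FPKM after nitidine chloride and 12.7 FPKM in DMSO. Of 16 markers of blood, fibroblasts, endothelium and hepatocytes, 4 were tested; COL1A1 and KDR rose among them, while PTPRC had 1 count and CD3E, HBB, TTR and SERPINA1 had 0 counts in all libraries together. Summed over each list, fibroblast markers had 4.43 to 4.94 FPKM after nitidine chloride and 2.49 to 2.89 FPKM in DMSO, and endothelium markers 0.64 to 0.783 FPKM after nitidine chloride and 0.191 to 0.285 FPKM in DMSO. Blood markers summed to 0.511 to 0.597 FPKM after nitidine chloride and 0.334 to 0.435 FPKM in DMSO, and hepatocyte markers to at most 0.171 FPKM after nitidine chloride and 0.0723 FPKM in DMSO; the part of other cells in the results was not tested. In bulk RNA, fewer cells of a kind and less RNA per cell cannot be told apart.

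Of the 5 genes, 2 rose, 2 fell and 1 did not pass the test. The Sestrins did not move as a family: SESN2 rose 2.85-fold and SESN1 1.66-fold, whereas SESN3 fell. BMT2 also fell, and CASTOR1, at 13 to 38 counts per library, did not pass. SESN2, SESN1, SESN3 and BMT2 had libraries that did not overlap between conditions, which also held for 60.7% of all tested genes. These counts are a description of 5 chosen genes, beside the 51.7% of all tested genes that changed.

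**Figure D1:**
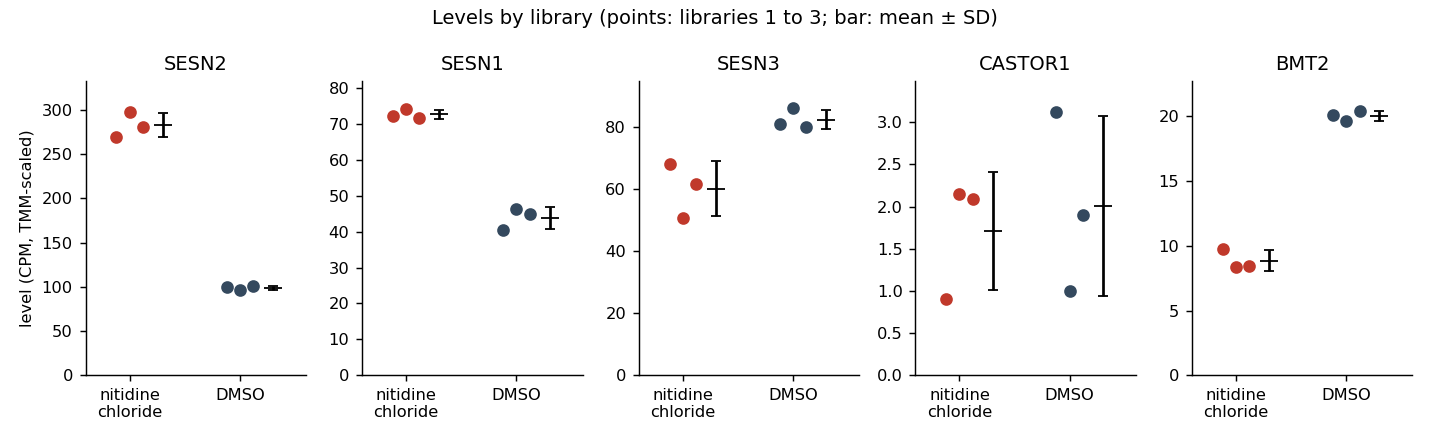
Level of each gene in each library (vertical axes in TMM-scaled CPM, each starting at 0), with nitidine chloride in red and DMSO in blue, and the mean ± SD of 3 libraries beside the points. SESN2 and SESN1 sit higher and SESN3 and BMT2 lower after nitidine chloride with no overlap, while the CASTOR1 points overlap.

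The sequences just before the annotated starts of the Sestrins are shown because SESN2 and SESN1 rose together while SESN3 did not, and because SESN1 has several starts far apart. They are RefSeq sequences of build GRCh38.p14, from 250 bases before a start, written 5′ to 3′ on the gene's strand, with bases inside an exon of GENCODE release 29 left out; capitals mark the only motif match found. The RefSeq table lists 1 start each for SESN2 and SESN3 and 3 for SESN1, a far one and a pair lying close together far downstream of it.
SESN2, chr1:28259268-28259517, plus strand: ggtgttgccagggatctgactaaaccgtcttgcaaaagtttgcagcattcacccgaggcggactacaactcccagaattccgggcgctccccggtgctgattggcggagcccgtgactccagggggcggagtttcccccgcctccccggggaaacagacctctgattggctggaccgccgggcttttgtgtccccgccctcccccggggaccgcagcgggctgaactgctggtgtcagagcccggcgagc
SESN1 far start, chr6:109094847-109095096, minus strand: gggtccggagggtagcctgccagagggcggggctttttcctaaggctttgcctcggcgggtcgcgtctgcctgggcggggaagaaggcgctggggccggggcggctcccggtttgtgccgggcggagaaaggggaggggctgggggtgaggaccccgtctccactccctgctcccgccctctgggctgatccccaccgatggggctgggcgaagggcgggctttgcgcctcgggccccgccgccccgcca
SESN1 middle start, chr6:109009556-109009802, minus strand: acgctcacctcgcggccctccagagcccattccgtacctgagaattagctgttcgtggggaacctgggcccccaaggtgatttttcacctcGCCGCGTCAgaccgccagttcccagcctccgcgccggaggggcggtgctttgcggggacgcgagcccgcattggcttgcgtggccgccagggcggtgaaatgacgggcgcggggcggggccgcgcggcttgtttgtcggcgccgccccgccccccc
SESN1 near start, chr6:109008989-109009238, minus strand: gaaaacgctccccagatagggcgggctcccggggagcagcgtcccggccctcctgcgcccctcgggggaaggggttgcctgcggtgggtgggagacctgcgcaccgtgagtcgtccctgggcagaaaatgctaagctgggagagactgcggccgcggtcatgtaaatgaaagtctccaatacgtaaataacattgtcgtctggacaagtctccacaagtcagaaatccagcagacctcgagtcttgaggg
SESN3, chr11:95232542-95232725, minus strand: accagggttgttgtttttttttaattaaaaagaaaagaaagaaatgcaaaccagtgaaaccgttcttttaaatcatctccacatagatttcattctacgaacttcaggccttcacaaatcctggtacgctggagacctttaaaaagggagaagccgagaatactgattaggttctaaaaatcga

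Motifs known from regulators of the family were searched on both strands of these windows. They were TGATGNAA, the core of the element bound by ATF4 with C/EBP factors, TGACGT, part of the cyclic AMP response element, TGTTTAC, a FOXO element, and TGACNNNGC, the core of the antioxidant response element. The antioxidant motif matched once, on the opposite strand 159 bases before the middle SESN1 start. Among 35116 windows of 250 bases before RefSeq starts, 10.9% held the antioxidant core. TGATGNAA was held by 3.14% of windows, TGACGT by 7.1% and TGTTTAC by 2.98%, and none of these motifs occurred in the Sestrin windows. A match describes letters and is not a measured binding site. A missing match covers the printed bases only, as other parts of the genes and bases farther away were not searched. The SESN3 window lies before the listed start at 95232475; protein-coding transcripts of SESN3 in GENCODE release 29 start between 95231046 and 95232541, the longest at 95231197, and the bases before that start were not searched. The printed bases before SESN3 had 35.9% G or C, those before SESN2 65.6%, and those before SESN1 60.4% to 74.4%. The median of all windows, each of 250 bases, was 58.0%. For SESN3, the 66 bases next to the listed start were left out. Its value thus covers 184 bases lying farther from that start.

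SESN2 (ENSG00000130766, chromosome 1, 28259527 to 28282491, plus strand) encodes the leucine-binding Sestrin best known for induction under stress. Its level was 270.0, 298.0 and 281.0 CPM in the nitidine chloride libraries, against 100.3, 96.5 and 100.7 CPM in the DMSO libraries. Every nitidine chloride library thus lay far above every DMSO library, and the DMSO libraries lay close together. The log2 fold change was 1.51 ± 0.06 (SE, 95% interval 1.37 to 1.66). The adjusted p was 1.51e-06 (quasi-likelihood test of edgeR, adjusted over all tested genes by the Benjamini-Hochberg method). Of all tested genes, 98.9% had a lower fold change.

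SESN1 (ENSG00000080546, chromosome 6, 108986437 to 109094819, minus strand) encodes another leucine-binding Sestrin. It had 72.1, 74.1 and 71.7 CPM after nitidine chloride, against 40.4, 46.2 and 44.8 CPM in DMSO. The nitidine chloride libraries were nearly equal and all above the DMSO libraries. Its log2 fold change was 0.73 ± 0.07 (SE, 95% interval 0.56 to 0.90), with an adjusted p of 1.23e-04 in the same edgeR test.

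SESN3 (ENSG00000149212, chromosome 11, 95165513 to 95232541, minus strand) encodes the Sestrin linked to FOXO factors. It had 68.1, 50.8 and 61.7 CPM after nitidine chloride, against 81.2, 86.1 and 80.2 CPM in DMSO. All nitidine chloride libraries were below all DMSO libraries, but they were spread more widely, with the second library lowest. The log2 fold change was -0.45 ± 0.11 (SE, 95% interval -0.71 to -0.20), with an adjusted p of 0.00907 in the same edgeR test. The long noncoding gene AP000787.1 runs over the whole of SESN3 on the opposite strand and had only 7 to 21 counts in the nitidine chloride libraries and 14 to 17 in the DMSO libraries, whereas SESN3 had 804 to 975 counts in the nitidine chloride libraries and 988 to 1263 in the DMSO libraries.

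Set against each other inside each library, where scaling between libraries drops out, the paralogs moved apart. SESN2 had 8.06, 8.66 and 8.44 times the FPKM of SESN1 after nitidine chloride, against 5.35, 4.5 and 4.84 times in DMSO. SESN2 had 14.1, 20.9 and 16.2 times the FPKM of SESN3 after nitidine chloride, against 4.41, 4.0 and 4.48 times in DMSO. SESN1 had 1.75, 2.42 and 1.93 times the FPKM of SESN3 after nitidine chloride, against 0.824, 0.888 and 0.926 times in DMSO.

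None of the 3 ratios overlapped between conditions. The log2 count ratio of SESN2 to SESN1 was 1.96 ± 0.05 after nitidine chloride and 1.18 ± 0.13 in DMSO (SD, n = 3 each), a difference of 0.78. For SESN2 to SESN3 it was 2.24 ± 0.29 after nitidine chloride and 0.27 ± 0.09 in DMSO, a difference of 1.98. For SESN1 to SESN3 it was 0.28 ± 0.24 after nitidine chloride and -0.92 ± 0.09 in DMSO, a difference of 1.2. Each difference had p = 0.1 in a two-sided exact permutation test, and 0.1 after adjustment over the 3 pairs; that is the smallest p that 3 against 3 libraries can give, so this test cannot pass 0.05.

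**Figure D2:**
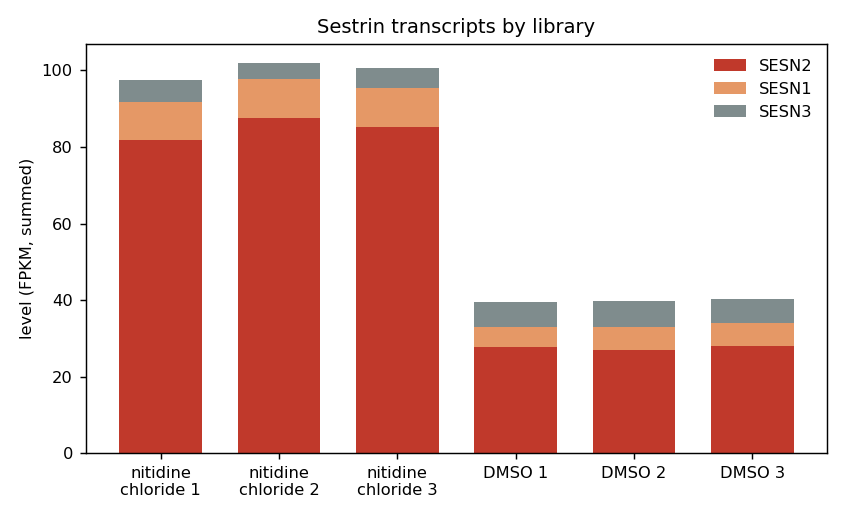
Stacked bars of the FPKM of SESN2, SESN1 and SESN3 in each library, starting at 0. The summed bars reach 97.7 to 102 FPKM after nitidine chloride and 39.4 to 40.2 FPKM in DMSO, and the SESN2 part makes up most of each.

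Summed over the 3 genes, Sestrin transcripts stood at 97.7, 102 and 101 FPKM after nitidine chloride, against 39.4, 39.7 and 40.2 FPKM in DMSO. These FPKM carry no TMM scaling. When scaled only by library size, SESN2 had a log2 fold change of 1.62, against 1.51 with TMM scaling. SESN2 held 84.8 ± 1.1% of the summed Sestrin FPKM after nitidine chloride and 69.5 ± 1.5% in DMSO (SD, n = 3 each). The share of SESN3 was 5.08 ± 0.91% after nitidine chloride and 16.2 ± 0.71% in DMSO. SESN1 held 10.1 ± 0.24% after nitidine chloride and 14.3 ± 0.95% in DMSO, a smaller share although its own level rose. The libraries did not overlap for any of these shares, and each had p = 0.1 in the exact permutation test, again the smallest possible. Taken of summed counts, with no gene length, SESN2 made up 68.0% after nitidine chloride and 44.0% in DMSO, SESN1 17.5% after nitidine chloride and 19.4% in DMSO, and SESN3 14.5% after nitidine chloride and 36.6% in DMSO.

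The order of levels per length was SESN2, SESN1, SESN3, BMT2 and CASTOR1 after nitidine chloride, and SESN2, SESN3, SESN1, BMT2 and CASTOR1 in DMSO. SESN1 averaged 10.1 ± 0.024 FPKM after nitidine chloride and 5.67 ± 0.41 FPKM in DMSO. SESN3 averaged 5.07 ± 0.82 FPKM after nitidine chloride and 6.45 ± 0.26 FPKM in DMSO. The libraries of neighbours in this order did not overlap within a condition. The place of SESN1 and SESN3 in DMSO depends on the gene length used. The FPKM rest on 7434 bp for SESN1 and 12319 bp for SESN3, whereas the exons of GENCODE release 29 joined without overlap make 5121 bp and 10573 bp; with these lengths, in an alternative added after the data had been seen, SESN1 averaged 8.23 ± 0.60 and SESN3 7.51 ± 0.31 on the same scale in DMSO, with ranges that overlap (7.56 to 8.70 and 7.30 to 7.86). For SESN2 both lengths were 3453 bp.

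The Sestrins also differ in genomic span, the distance from the first to the last base of a gene with its introns. Across all tested genes, median fold changes fell with span above 50 kb. Of 1738 tested genes spanning 100 to 200 kb, 75% were lower and 2.65% higher, and the median log2 change was -0.84. SESN1 spans 108.4 kb and was among those that rose: it ranked 39th from the top of its class, and 97.8% of the class had a lower fold change. BMT2, with 120.8 kb in the same class, fell below the median, and 26.2% of the class were lower.

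SESN2 spans 22.96 kb, where genes of 20 to 50 kb had a median of 0.13, 30.8% were higher and 12.2% lower. It ranked 44th of the 3875 genes of that class. SESN3 spans 67.03 kb, and genes of 50 to 100 kb had a median of -0.21 with 39.8% lower and 10.5% higher; 28.6% of them had a lower fold change than SESN3. CASTOR1 spans 4.511 kb, in a class with a median of 0.09.

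**Figure D3:**
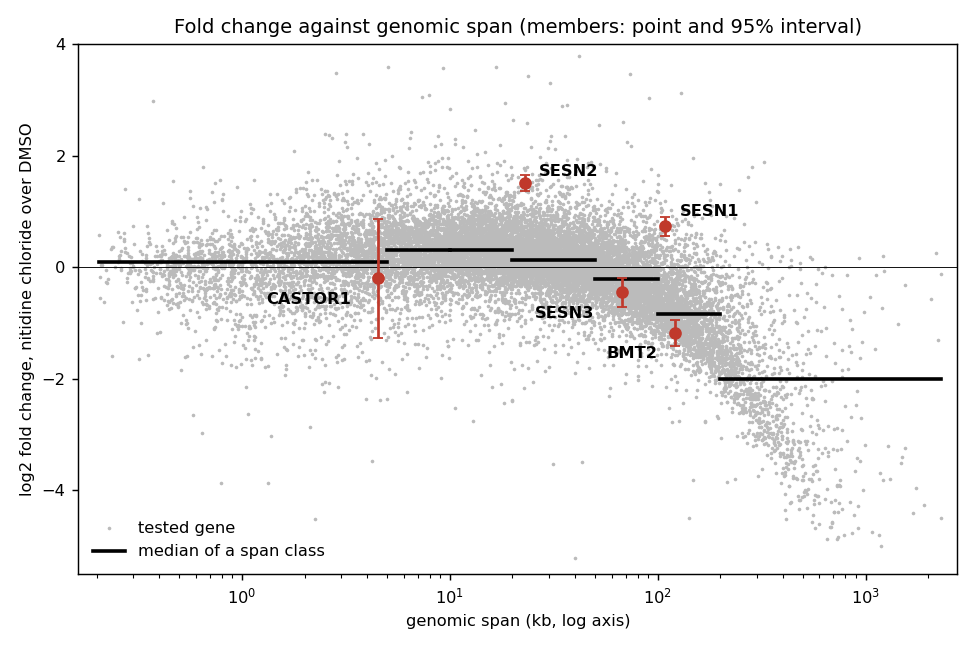
Log2 fold change of every tested gene (grey points; 18 lie outside the vertical axis) against genomic span on a log axis, with black lines for the median of each span class and red points with 95% intervals for the 5 genes. SESN1 stands well above the line of its class at -0.84, while BMT2 lies somewhat below the same line and SESN3 somewhat below its line at -0.21.

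The span of SESN1 comes from its far start alone. GENCODE release 29 lists 3 protein-coding transcripts with 10 exons each. The far transcript starts at 109094819 and spans 108.4 kb, with a first intron of 91.5 kb. The middle and near transcripts start at 109009555 and 109008988 and span 23.11 and 22.55 kb. All exons but the first of the far transcript lie in the stretch that the shorter transcripts cover, 9 of 10, so the gene's count does not tell which start was used. Among genes of 20 to 50 kb, 90.2% had a lower fold change than SESN1. The use of the starts was not measured, and its part in the result was not tested.

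SESN3 has 5 protein-coding transcripts of 41.06 to 65.69 kb, which start between 95231046 and 95232541, and SESN2 has 1 transcript. BMT2 has 2 protein-coding transcripts, of 118.0 and 120.8 kb. The antisense gene AL390208.1 inside SESN1 had 0 to 2 counts in the nitidine chloride libraries and 1 to 5 in the DMSO libraries.

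**Figure D4:**
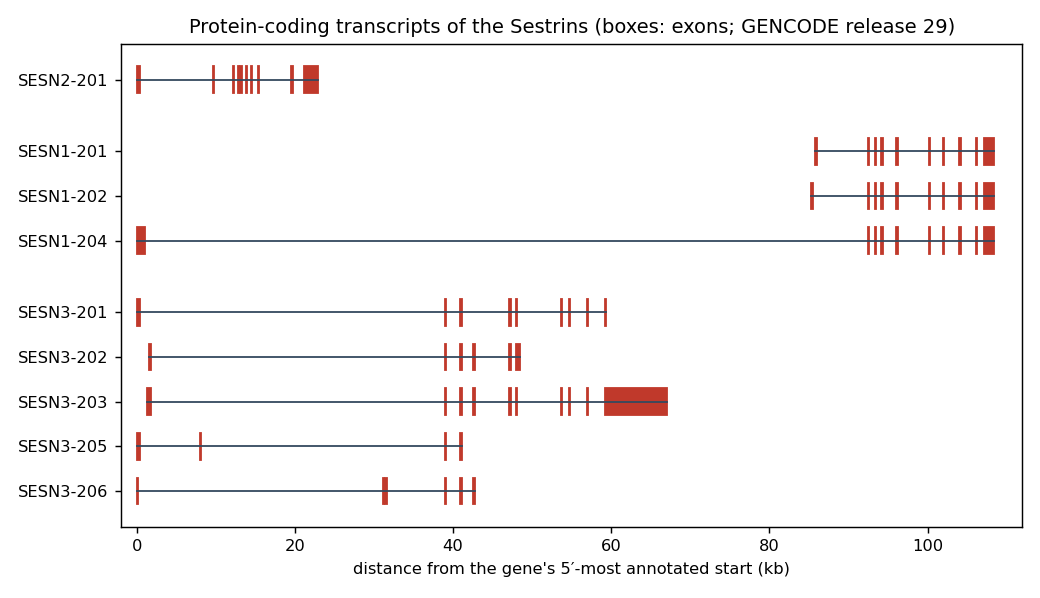
Protein-coding transcripts of SESN2, SESN1 and SESN3 drawn to scale, with exons as red boxes and introns as lines, against the distance in kb from the 5′-most annotated start of each gene. The longest SESN1 transcript begins with a first intron of 91.5 kb, while the other two cover only the last part, with spans of 22.55 and 23.11 kb, close to the 22.96 kb of SESN2.

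CASTOR1 (ENSG00000239282, chromosome 22, 30285117 to 30289627, minus strand) encodes the arginine sensor that releases GATOR2 when it binds arginine. It had 13, 34 and 29 counts in the nitidine chloride libraries, against 38, 14 and 30 counts in the DMSO libraries. The conditions overlapped entirely, and each had 1 library well below the other two. The log2 fold change was -0.20 ± 0.46 (SE), with an adjusted p of 0.738 in the edgeR test, and its 95% interval ran from -1.27 to 0.87, so neither a fall nor a rise within these bounds can be told from no change. Without DMSO replicate 1 the log2 fold change was 0.23 and without nitidine chloride replicate 1 it was 0.10.

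The count of CASTOR1 is uncertain. The gene AC004997.1 (chromosome 22, 30285238 to 30299482) lies on the same strand and covers 4.39 kb of CASTOR1. It had 33, 33 and 14 counts in the nitidine chloride libraries, against 4, 10 and 25 counts in the DMSO libraries, and did not pass (log2 fold change 0.98, adjusted p of 0.151, edgeR). In nitidine chloride replicate 1 CASTOR1 was low and AC004997.1 high, and in DMSO replicate 1 the reverse was seen. The other libraries did not show this: CASTOR1 and AC004997.1 had 34 and 33 counts in nitidine chloride replicate 2 and 29 and 14 in replicate 3. In DMSO they had 14 and 10 counts in replicate 2 and 30 and 25 in replicate 3. How reads were divided between them is not given in the sources used here, and its part was not tested. The FPKM of CASTOR1 rest on a length of 7366 bp, more than the span of the gene and more than the 2746 bp of its joined exons. It averaged 0.24 ± 0.096 FPKM after nitidine chloride and 0.262 ± 0.14 FPKM in DMSO, and per joined exon length 0.645 ± 0.26 after nitidine chloride and 0.703 ± 0.37 in DMSO, the lowest of the 5 genes by both lengths.

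BMT2 (ENSG00000164603, chromosome 7, 112819147 to 112939916, minus strand) encodes the S-adenosylmethionine sensor. It had 9.78, 8.40 and 8.41 CPM after nitidine chloride, against 20.1, 19.6 and 20.4 CPM in DMSO. Each nitidine chloride library lay below 10 CPM and each DMSO library above 19 CPM. The log2 fold change was -1.18 ± 0.10 (SE, 95% interval -1.42 to -0.94), with an adjusted p of 5.87e-05 in the edgeR test.

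Of the 4 tested genes among 5 other sensors, 2 fell and 2 did not pass, where 51.7% of all tested genes changed, 24.7% higher and 27.0% lower. LARS1, leucyl-tRNA synthetase, which has been described as a leucine sensor, fell with a log2 fold change of -0.43 ± 0.05 (adjusted p of 3.07e-04, edgeR), at 281, 289 and 280 CPM after nitidine chloride against 377, 381 and 384 CPM in DMSO. SLC38A9, the arginine sensor of the lysosomal membrane, fell with -0.34 ± 0.10 (adjusted p of 0.028, edgeR). It spans 147.4 kb, in the class with a median of -0.84. The adjusted p was 0.0729 without nitidine chloride replicate 3, 0.0613 without DMSO replicate 1 and 0.0946 without DMSO replicate 3. With scaling by library size alone it was 0.0869, with the replicate block 0.0667 and with log2 FPKM 0.131.

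CASTOR2, the partner of CASTOR1, had 4.75, 5.75 and 6.26 CPM after nitidine chloride, against 3.78, 4.41 and 4.32 CPM in DMSO. Its log2 fold change of 0.42 ± 0.16 did not pass (adjusted p of 0.0571), and it did pass without nitidine chloride replicate 1 (0.0307), with a mean of at least 50 counts (0.0463), with log2 FPKM (0.0121) and when scaled only by library size (0.024). CASTOR2 shares sequence with the copy listed as CASTOR3, so its count is uncertain. SAR1B, a GTPase that has been described as a leucine sensor, had 0.09 ± 0.09 (adjusted p of 0.409, with SEC24A overlapping it on the opposite strand), and TM4SF5 had 0 counts in all libraries.

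Downstream of the sensors, the 21 tested genes of GATOR1, GATOR2, KICSTOR, the Rag GTPases and Ragulator went both ways, with 7 higher, 4 lower and 10 not passing, where 51.7% of all tested genes changed, 24.7% higher and 27.0% lower. Their median log2 fold change was 0.10, with a range from -0.96 to 0.77, beside a median of 0.01 over all tested genes. The changes of SESN2 and BMT2 lie outside that range. KICSTOR had 3 of 4 members higher and 1 lower, and C12orf66, now KICS2, was highest with 0.77 ± 0.11.

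The counts per complex likewise stand beside 24.7% higher and 27.0% lower of all tested genes. GATOR2, the target of Sestrins and CASTOR1, had 1 of 5 members higher, MIOS with 0.67 ± 0.08, and 1 lower, WDR59 with -0.96 ± 0.07. GATOR1 had DEPDC5 lower with -0.78 ± 0.11 and NPRL2 higher with 0.35 ± 0.10. WDR59 (128.8 kb) and DEPDC5 (153.1 kb) lie in the span class with a median of -0.84, where 75% were lower. The call of NPRL2 was lost without nitidine chloride replicate 2 (adjusted p of 0.0561, edgeR), without DMSO replicate 2 (0.0777) and with the replicate block (0.06). Of the Rag GTPases and Ragulator, 2 of 9 rose, with RRAGC highest at 0.59 ± 0.08. RRAGD fell with -0.30 ± 0.09 (adjusted p of 0.02), which was lost without nitidine chloride replicate 3 (0.06), without DMSO replicate 3 (0.0769), with log2 FPKM (0.098) and when scaled only by library size (0.093). The opposite strand of NPRL2 and WDR59 holds CYB561D2 and ZNRF1, so these counts are uncertain without a stated strand setting.

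**Figure D5:**
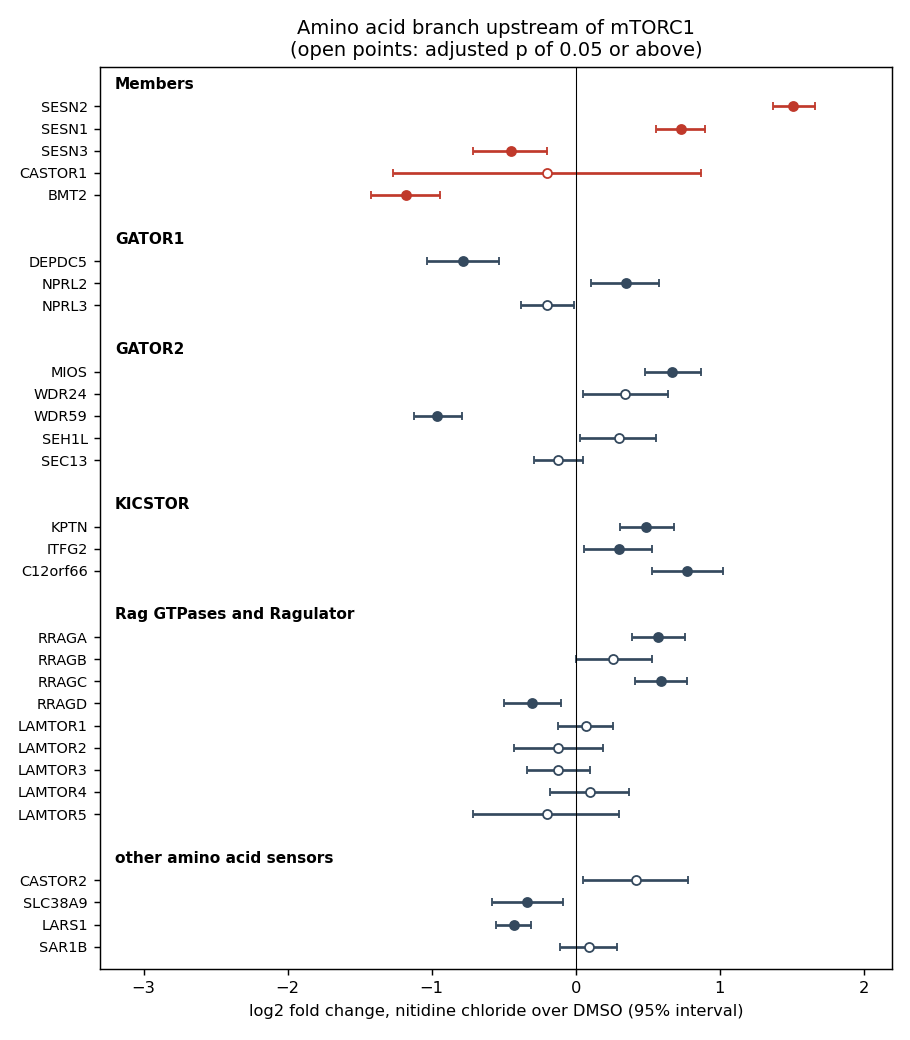
Log2 fold change with 95% interval for the 5 genes (red) and the tested genes of the complexes downstream and the other sensors (blue, without 1 gene), with open points where the adjusted p was 0.05 or above. SESN2 at 1.51 lies to the right of every other gene shown and BMT2 at -1.18 to the left of every other gene shown.

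Known transcriptional regulators of Sestrins were also measured. Their 8 genes had a median log2 fold change of 0.52: 5 passed as higher, 2 as lower and 1 failed the test, beside the same 24.7% higher and 27.0% lower of all tested genes. CEBPB, a partner of ATF4 in the stress response, rose with 1.42 ± 0.08. DDIT3, which encodes the stress factor CHOP, rose with 1.52 ± 0.26. ATF4 itself also rose, by less, with 0.38 ± 0.05 (adjusted p of 7.15e-04, edgeR). DDIT3 had 18.6, 34.0 and 19.0 CPM after nitidine chloride, against 7.15, 9.81 and 7.93 CPM in DMSO; the far more abundant MARS1 overlaps it on the opposite strand, so its count is uncertain.

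NFE2L2, encoding NRF2, had -0.09 ± 0.09 (adjusted p of 0.443), and its direction turned to 0.02 when scaled only by library size and to 0.01 with log2 FPKM. The more abundant AGPS overlaps it on the opposite strand.

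The FOXO genes went both ways. FOXO1 (110.9 kb) fell with -1.03 ± 0.09 and FOXO3 (124.9 kb) with -0.59 ± 0.06, in the span class with a median of -0.84, while FOXO4 (7.339 kb) rose with 0.67 ± 0.16. FOXO3 had 90.6, 99.9 and 95.5 CPM after nitidine chloride, against 141, 147 and 142 CPM in DMSO. These are transcript levels, and the activity of the factors was not measured.

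Genes around the nutrients that the sensors read had changes in both directions, and their counts likewise stand beside 24.7% higher and 27.0% lower of all tested genes. Of 9 tested genes of methionine and S-adenosylmethionine metabolism, 1 rose and 4 fell. SRM, spermidine synthase, rose with 0.51 ± 0.10, and MTR, methionine synthase, fell with -0.96 ± 0.07. MTR spans 108.7 kb, in the class with a median of -0.84. Of 8 tested genes of arginine supply and use, 2 rose, with ODC1, ornithine decarboxylase, highest at 0.79 ± 0.07, and 2 fell, with the transporter SLC7A2 lowest at -0.64 ± 0.10. Of 10 genes of leucine uptake and breakdown, 5 rose and 2 fell. The transporter SLC43A2 was highest with 0.71 ± 0.11. BCKDHB, a subunit of the branched-chain keto acid dehydrogenase (239.6 kb), was lowest with -3.03 ± 0.11. Tested genes spanning 200 kb or more had a median of -2.0, and 89.3% of them were lower.

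Of 14 partners of Sestrins in redox and AMPK signalling, 7 rose and 2 fell, with a median log2 fold change of 0.18, where 51.7% of all tested genes changed, 24.7% higher and 27.0% lower. SRXN1, sulfiredoxin, which reduces overoxidised peroxiredoxins, rose with 0.63 ± 0.08. TXNRD1, thioredoxin reductase, fell with -0.88 ± 0.15 and spans 134.5 kb, in the class with a median of -0.84. The pseudogene RPL18AP3 with a higher count lies within it on the same strand, so the count of TXNRD1 is uncertain.

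The genes most like each of the 5 in pattern were sought among 12317 tested genes with a mean of at least 1 FPKM, by the Euclidean distance between log2 CPM profiles over the 6 libraries, each less its own mean. For SESN2 they were ZCCHC12, ACAA1 and PRELID3A at distances of 0.12, 0.14 and 0.17. For SESN1 they were FAM171A2, SIRPA and EPHB3 at 0.068 to 0.089, with spans of 10.66 to 46.43 kb, all shorter than SESN1. For SESN3 they were ETNK1, DEK and SUZ12 at 0.059 to 0.078. For BMT2 they were NUP62CL, HIBCH and NECTIN3 at 0.068 to 0.10, with spans of 83.01 to 205.5 kb. With 3 against 3 libraries the distance mostly follows the fold change, which itself went with span across all tested genes. The spans of the nearest genes are thus no separate result. Among the genes searched, the nearest to CASTOR1 was LITAF, at a distance of 0.66. CASTOR1 itself averaged 0.24 FPKM after nitidine chloride and 0.262 FPKM in DMSO, so genes at levels as low as its own were not searched.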

How the data were processed

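Messenger RNA libraries of HEK-293T cells, 3 with nitidine chloride and 3 with DMSO, were grouped and numbered by their titles. Raw read counts per gene and FPKM were deposited by the authors in a single table, per the file headers. The submitters' processing notes list HISAT2 2.0.4 and StringTie 1.3.0 without roles; the sources used here name neither the counter, its strand setting nor the build. Gene positions equal those of GENCODE release 29 (GRCh38) for 47538 of 50111 shared identifiers.

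Counts were tested with edgeR 4.0.16 (R 4.3.3, TMM scaling, quasi-likelihood test) over the 15953 genes whose mean count was 10 or more. Benjamini-Hochberg adjustment and a threshold of 0.05 were used. This test was checked on simulated counts in which far fewer genes changed than the 51.7% seen here. The check therefore does not cover scaling or false calls when so many genes change. Standard errors are the log2 fold change divided by the square root of F. Ratios used a pseudocount of 0.5 and exact permutation tests (scipy 1.17.1). Results were recomputed with the replicate number as a block, without single libraries, with other filters, DESeq2 1.42.0, library size scaling, limma 3.58.1 (voom, and log2 FPKM with a pseudocount of 0.1) and a threshold of 0.01.

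Members and gene lists were chosen with earlier results of these data known. Named genes are the members, the highest and lowest changed gene of each pathway list, all other sensors and Sestrin regulators, nearest patterns and overlapping genes. Some of these, which stay in the counts of their lists, and 1 planned motif are not reported here. The markers fall outside that rule and were named after their values were seen. A planned comparison of protein sequences was not run. Replicates of a group differed by more than sampling noise (chi-square per degree of freedom of 8.534 to 15.827).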

Additional observations from a re-analysis of the deposited data

How the results depend on the processing

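SESN2, SESN1, SESN3 and BMT2 kept their direction and stayed past the threshold under all 14 alternatives, with log2 fold changes of 1.48 to 1.62, 0.67 to 0.83, -0.55 to -0.34 and -1.25 to -1.04; the highest adjusted p was 0.0452, for SESN3 with log2 FPKM. CASTOR1 passed under none of the 13 alternatives that could test it. Leaving out single libraries gave it -0.53 to 0.23, with 0.10 without nitidine chloride replicate 1 and 0.23 without DMSO replicate 1, and it was not tested with a mean of at least 50 counts. Differences of the paralog ratios ranged from 0.72 to 2.10 and those of the shares from -22.09 to 24.02 percentage points over their alternatives, all in their own direction. The share difference moved most when counts replaced FPKM, which gave SESN2 68.0% after nitidine chloride and 44.0% in DMSO; with exon lengths it was 80.5% and 63.7%.

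With the replicate number as a block, 7555 genes passed instead of 8250; SESN2, SESN1, SESN3 and BMT2 were unchanged in call (adjusted p of 0.0216 for SESN3), while NPRL2 (0.06) and SLC38A9 (0.0667) were lost. The numbers come from titles only and same-numbered libraries did not deviate together (correlations of -0.003, -0.066 and 0.039). At a threshold of 0.01, 2616 genes were higher instead of 3936. Scaling by library size alone moved the median of all genes from 0.01 to 0.12 and the share of higher genes among those changed from 47.7% to 57.9%. NFE2L2, which never passed, turned to 0.02 with that scaling and to 0.01 with log2 FPKM; the cause was not tested. CASTOR1 rests on 13 to 38 counts per library, and what sets its spread between libraries was not tested.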
